A study of Mus musculus with 6 samples.

Results

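The genes described here are 10 components of the Nodal pathway and of its feedback: the ligand genes Nodal and Gdf3, the co-receptor gene Tdgf1, the receptor genes Acvr1b and Acvr2b, the secreted antagonists Lefty1 and Lefty2, and the intracellular feedback genes Skil, Smad7 and Pmepa1. They were taken from a list of gene names drawn up with earlier results of these data known, and each was read from 1 probe set that the platform annotation assigns to that gene alone. All 10 had a value, among 19937 genes in all. Affymetrix one-colour arrays measured total RNA of mouse embryonic stem cells in 6 samples, 3 after 24 h with CHIR99021 and 3 after 24 h with XAV939. CHIR99021 inhibits GSK3, the kinase that marks β-catenin for destruction. XAV939 inhibits tankyrase, which stabilises Axin and so lowers β-catenin. CHIR99021 was given at 3 µM, and for XAV939 the sample labels state 3 µM while the treatment protocol states 1 µM. Both groups were the same V6.5-derived line, in which Ctnnb1, the β-catenin gene, carried a knocked-in biotin and 3xFLAG tag together with BirA, a biotin ligase. Both were kept in serum and LIF on feeder cells from DR4 mice, so that every array comes from 1 modified line and feeder RNA may be present in each. No untreated arrays were analysed, and each difference below is CHIR99021 minus XAV939 and belongs to neither compound alone. The labels do not say whether replicates were separate cultures, so p-values measure only the spread between these arrays, which may be technical.

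Nodal is a secreted ligand of the TGF-β family that binds activin receptors together with the co-receptor Cripto, the product of Tdgf1. The receptors phosphorylate SMAD2 and SMAD3, which enter the nucleus with SMAD4 and act with partners such as FOXH1. Among the genes they switch on are Nodal itself and its inhibitors, Lefty1, Lefty2, Skil, Smad7 and Pmepa1, so the pathway carries a positive and several negative loops. In the embryo it maintains the epiblast and induces mesendoderm, and embryonic stem cells in serum and LIF have the ligand, its co-receptor and the Lefty genes active.

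The genes of the pathway moved in both directions. Nodal, Gdf3, Tdgf1, Lefty1 and Skil were lower with CHIR99021, while Lefty2, Acvr1b, Smad7 and Pmepa1 were higher, and Acvr2b did not pass the test. The largest difference was that of Lefty1, which was 2.82-fold lower, and its close relative Lefty2 was 1.33-fold higher on the same arrays. Of the 10 genes, 9 passed the threshold (limma, adjusted p under 0.05 over all genes), 5 lower and 4 higher. Of all genes tested, 9.65% passed, 4.34% lower and 5.31% higher. Both shares changed with the arrays used. The lower count was 866 genes in the full set and 528 to 1117 with 1 array left out. The higher count was 1058 and 726 to 1130. The median absolute log2 difference was 0.39 over the 10 genes and 0.062 over all genes. For 9 of the 10 genes, 5 lower and 4 higher, no CHIR99021 value overlapped an XAV939 value, which held for 25.1% of all genes, 11.0% lower and 14.1% higher. Every one of the 10 exceeded the median gene level (6.07), with mean log2 levels from 7.50 to 11.70.

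**Figure D1:**
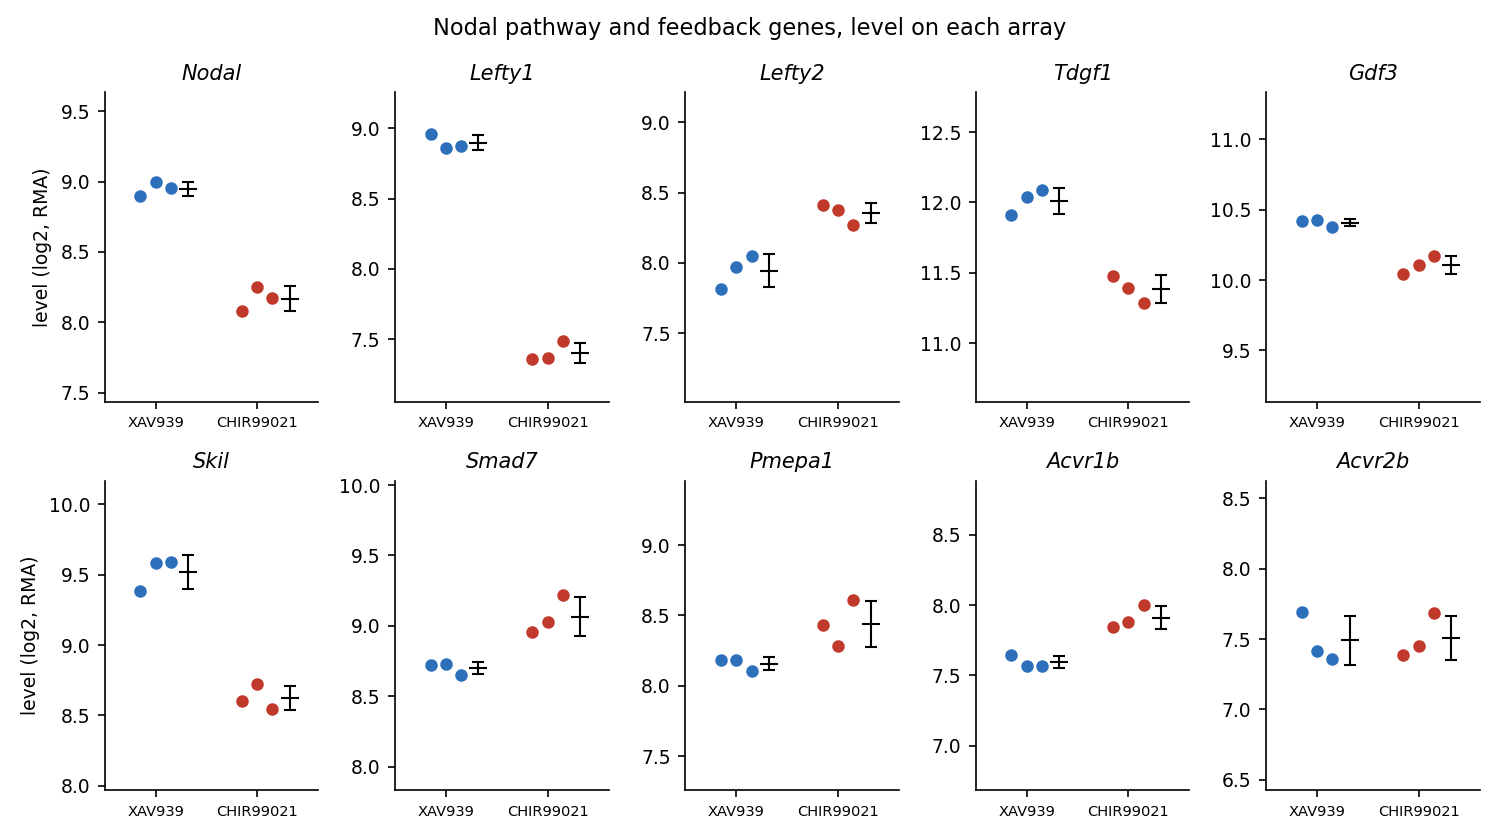
Level of each of the 10 genes on each array, on the log2 RMA scale, with XAV939 in blue and CHIR99021 in red and a black mark for the mean ± SD of 3 arrays; every panel spans the same height but starts at its own level. The treatments are separate for all genes shown except Acvr2b, and Lefty1 and Lefty2 lie on opposite sides.

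Array medians lay between 5.67 and 5.71 on the log2 scale. Across genes, arrays of 1 treatment correlated at 0.997 to 0.999 and arrays of different treatments at 0.994 to 0.995. XAV939 replicate 1 and CHIR99021 replicate 3 were the arrays that correlated least with their own groups. Stem cell markers stood high in both groups, with Pou5f1 at 11.33 ± 0.10 and 11.51 ± 0.06 and Sox2 at 10.98 ± 0.03 and 10.98 ± 0.05 (CHIR99021 and XAV939, SD, n = 3). Of 8 such markers, 2 were higher (Nanog, 0.49 ± 0.05 SE, and Zfp42, 0.25 ± 0.06), 2 lower (Utf1, -0.67 ± 0.09, and Fgf4, -0.38 ± 0.06) and 4 not past the threshold. Among all genes, 5.31% were higher and 4.34% lower.

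Among the ligands, Nodal was the gene with the larger difference. Its log2 level was 8.08, 8.25 and 8.17 on the CHIR99021 arrays (replicates 1, 2 and 3 in this order throughout) and 8.90, 8.99 and 8.95 on the XAV939 arrays. The highest CHIR99021 value lay well under the lowest XAV939 value. Nodal fell by 0.78 on the log2 scale (difference -0.78 ± 0.06 SE, 1.72-fold lower, adjusted p = 1.97e-05). Gdf3, a ligand of the same family that uses Cripto and the same SMADs and can also oppose BMPs, read 10.04, 10.11 and 10.17 with CHIR99021 and 10.42, 10.43 and 10.38 with XAV939. All 3 CHIR99021 arrays were lower. The difference of Gdf3 was -0.30 ± 0.05 (SE), or 1.23-fold lower (adjusted p = 0.00471).

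Tdgf1 is the GPI-anchored co-receptor without which Nodal and Gdf3 bind activin receptors poorly. Its level was 11.48, 11.39 and 11.28 with CHIR99021 and 11.91, 12.04 and 12.09 with XAV939, without overlap. Tdgf1 fell by 0.63 (± 0.07 SE, 1.55-fold lower, adjusted p = 2.02e-04). The RefSeq gene table lists the pseudogenes Tdgf1-ps1 and Tdgf1-ps2, and whether the probes tell the gene from these copies was not tested.

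Nodal and Tdgf1, the ligand and co-receptor genes that fell together, and Acvr1b, a receptor gene that rose, have a promoter in the RefSeq table used here (GRCm38.p6). The sequences below are the 250 bases before each gene's start, in the direction of the gene. They run from chr10:61417722-61417971 on the plus strand for Nodal, from chr9:110946159-110946408 on the minus strand for Tdgf1 and from chr15:101173822-101174071 on the plus strand for Acvr1b. Capitals mark matches, on either strand, to the SMAD box CAGAC, the FOXH1 motif (AATCCACA or AATACACA) or the TCF/LEF motif through which β-catenin acts (CTTTG followed by AA, AT, TA or TT).
Nodal: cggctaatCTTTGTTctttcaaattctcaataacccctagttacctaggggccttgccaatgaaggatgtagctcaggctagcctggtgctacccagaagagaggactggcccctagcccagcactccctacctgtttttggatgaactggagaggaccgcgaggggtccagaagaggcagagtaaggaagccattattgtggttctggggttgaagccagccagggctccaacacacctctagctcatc
Tdgf1: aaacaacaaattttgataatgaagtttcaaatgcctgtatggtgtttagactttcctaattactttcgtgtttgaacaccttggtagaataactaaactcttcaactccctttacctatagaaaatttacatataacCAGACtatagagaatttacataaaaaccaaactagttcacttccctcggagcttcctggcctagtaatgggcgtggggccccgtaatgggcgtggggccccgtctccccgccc
Acvr1b: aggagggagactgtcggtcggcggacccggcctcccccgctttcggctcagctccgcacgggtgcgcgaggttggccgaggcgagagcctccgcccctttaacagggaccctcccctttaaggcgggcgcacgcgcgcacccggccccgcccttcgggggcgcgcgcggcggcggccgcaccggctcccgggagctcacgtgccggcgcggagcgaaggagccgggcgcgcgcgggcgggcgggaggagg
The Nodal window held 1 TCF/LEF match, CTTTGTT, near its far end, and that of Tdgf1 held 1 SMAD box. No match to the 3 motifs was found in the window of Acvr1b, which is rich in G and C (78.8%, against 53.2% for Nodal and 42.0% for Tdgf1). The window of Acvr2b, not shown, held 1 SMAD box and 1 TCF/LEF match. None of these matches overlapped another. Over all 32851 promoter windows of this length, 42.2% held the SMAD box, 1.61% the FOXH1 motif and 14.8% the TCF/LEF motif. A match is a string of letters and no binding was measured. The well-known Nodal-responsive enhancer of Nodal lies in its first intron, outside this window.

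Of the receptor genes, Acvr1b was higher with CHIR99021 and Acvr2b did not pass. Acvr1b encodes ALK4, the type I activin receptor that phosphorylates SMAD2 and SMAD3. It read 7.85, 7.88 and 8.00 with CHIR99021 and 7.64, 7.57 and 7.57 with XAV939, so every CHIR99021 array was higher. Acvr1b rose by 0.32 ± 0.06 (SE), 1.25-fold (adjusted p = 0.00587). Acvr2b encodes ActRIIB, a type II receptor that binds the ligand and activates the type I chain. Its values were 7.39, 7.45 and 7.69 with CHIR99021 and 7.69, 7.42 and 7.36 with XAV939. The treatments overlapped, and CHIR99021 replicate 3 and XAV939 replicate 1 stood above the other arrays of their groups. Acvr2b differed by 0.02 ± 0.10 (SE, adjusted p = 0.961) with a 95% interval from -0.20 to 0.24. Without CHIR99021 replicate 3, XAV939 replicate 2 or XAV939 replicate 3 its difference turned negative (-0.07, -0.02 and -0.05), with none past the threshold.

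**Figure D2:**
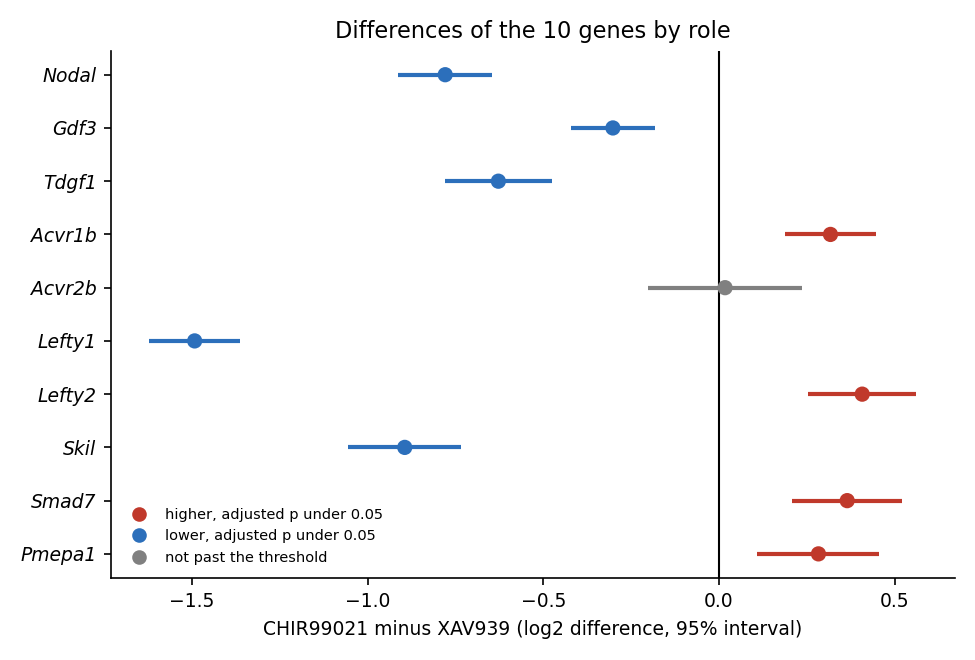
Difference of each gene between CHIR99021 and XAV939 on the log2 scale, from limma, with its 95% interval, ordered as ligands, co-receptor, receptors, secreted antagonists and intracellular feedback genes. Points left of 0 are lower with CHIR99021; Lefty1 at -1.49 and Lefty2 at 0.41 stand apart within 1 class of antagonist.

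Lefty1 and Lefty2 are secreted relatives of Nodal that block its receptors and Cripto. In the mouse embryo Lefty1 marks the anterior visceral endoderm and later the midline, and Lefty2 marks nascent mesoderm and the left lateral plate. Lefty1 read 7.36, 7.37 and 7.49 with CHIR99021 and 8.96, 8.86 and 8.88 with XAV939. The gap between the groups was many times the spread within them. Lefty1 fell by 1.49 (-1.49 ± 0.06 SE, adjusted p = 2.07e-07). Lefty2 read 8.41, 8.37 and 8.27 with CHIR99021 and 7.82, 7.97 and 8.05 with XAV939, again without overlap but the other way round. Lefty2 rose by 0.41 ± 0.07 (SE, adjusted p = 0.00357).

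The paralogs were then set against each other within each array, where an effect shared by the whole array cancels. Relative to its own XAV939 mean, Lefty1 stood at -1.54, -1.53 and -1.41 on the 3 CHIR99021 arrays, and Lefty2 at 0.47, 0.43 and 0.33. The log2 ratio of Lefty1 to Lefty2 fell by 1.90 with CHIR99021 (-1.90 ± 0.09 SE, 95% interval -2.11 to -1.69), a 3.73-fold shift of the ratio (limma adjusted p = 9.37e-07, fitted as 1 more row beside all genes). That fit drew the spread of the ratio toward that of single genes, so its SE, interval and adjusted p may be too narrow. The ratio had SDs of 0.14 over the CHIR99021 arrays and 0.17 over the XAV939 arrays. For Lefty1 alone the SDs were 0.07 and 0.05, and for Lefty2 0.07 and 0.12. An exact two-sided permutation test over the 6 arrays gave p = 0.1, the smallest that 3 against 3 arrays allow. The ratio of the signals of these probe sets has no meaning as an amount, and only its change between treatments was used. Within each treatment, the array with the highest Lefty1 value had the lowest Lefty2 value, namely XAV939 replicate 1 and CHIR99021 replicate 3. The genes are similar in sequence, and how far each probe set also reads the other transcript was not tested.

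**Figure D3:**
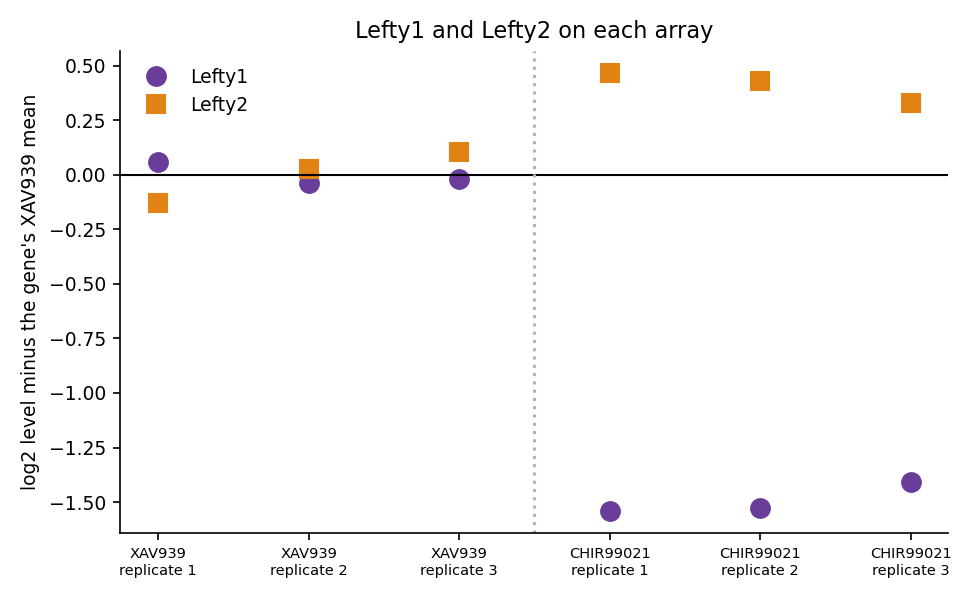
Log2 level of Lefty1 (circles) and Lefty2 (squares) on each array, each minus the mean of that gene over the 3 XAV939 arrays, so that 0 is that mean. On the CHIR99021 arrays Lefty1 lies between -1.54 and -1.41 and Lefty2 between 0.33 and 0.47.

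Lefty2 and Lefty1 lie near each other on the same mouse chromosome in the RefSeq gene table (GRCm38.p6). Of the nearest genes with a value around the pair, Tmem63a, a membrane channel gene on the far side of Lefty1, fell by 0.48 (± 0.05 SE, adjusted p = 2.09e-04). Sde2, a genome-maintenance and splicing gene on the other side of Lefty2, differed by -0.04 ± 0.08. Ephx1, an epoxide hydrolase gene beyond Tmem63a, differed by 0.09 ± 0.07, and the unnamed transcript G370120E05Rik beyond Sde2 by -0.0005 ± 0.13, none of these 3 past the threshold. Beside Nodal, Pald1 fell by 0.50 (± 0.06 SE, adjusted p = 3.80e-04). Eif4ebp2, a translation repressor gene on the other side of Nodal, differed by -0.10 ± 0.10, Prf1 by -0.03 ± 0.08 and D830039M14Rik by -0.04 ± 0.12, and these did not pass.

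The intracellular feedback genes also split. Skil encodes SnoN, a repressor that binds SMADs on their target genes and is itself induced by the pathway. It read 8.60, 8.72 and 8.55 with CHIR99021 and 9.38, 9.59 and 9.59 with XAV939. The groups were far apart, with XAV939 replicate 1 the lowest of its group. Skil fell by 0.89 (-0.89 ± 0.07 SE, 1.86-fold lower, adjusted p = 2.56e-05). Smad7 encodes the inhibitory SMAD that occupies type I receptors and brings ubiquitin ligases to them. Its values were 8.95, 9.03 and 9.22 with CHIR99021 and 8.72, 8.73 and 8.65 with XAV939, and CHIR99021 replicate 3 was the highest array. Smad7 rose by 0.37 ± 0.07 (SE, 1.29-fold, adjusted p = 0.00788). With all 34760 probe sets tested together its adjusted p was 0.0564.

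Pmepa1, also known as TMEPAI, encodes a membrane protein that keeps SMAD2 and SMAD3 from the receptor. It read 8.43, 8.28 and 8.61 with CHIR99021 and 8.19, 8.18 and 8.11 with XAV939, so the groups were separate but the CHIR99021 arrays were widely spread. Pmepa1 rose by 0.28 ± 0.08 (SE, 1.22-fold) and passed narrowly (adjusted p = 0.0477). This call was lost when any array other than CHIR99021 replicate 2 was left out (adjusted p = 0.0642 to 0.154), and in 9 of 15 alternatives in all. Without CHIR99021 replicate 3 the difference was 0.20.

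Spread within a treatment was small for most of the 10 genes, with SDs of 0.06 to 0.16 over the CHIR99021 arrays and 0.03 to 0.18 over the XAV939 arrays. CHIR99021 replicate 3 was the highest array of its group for 6 of the 10 genes (Smad7, Pmepa1, Acvr1b, Acvr2b, Lefty1 and Gdf3). It was the lowest for 3 (Lefty2, Tdgf1 and Skil). How often this array was highest over all genes was not counted.

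Of 24 markers of feeder fibroblasts, 9 passed the threshold, against 9.65% of all genes. Of these 9, 8 were higher and 1 lower, where 5.31% of all genes were higher and 4.34% lower. The other 15 did not pass, and the median log2 difference of the 24 was 0.08. The lower one was Mmp2, a matrix metalloprotease (-0.39 ± 0.07 SE, adjusted p = 0.00669). Summed on the linear scale, the signal of the 24 genes was 3680 to 3965 on the CHIR99021 arrays and 2820 to 2940 on the XAV939 arrays, highest on CHIR99021 replicate 3. Of the gap of 904 between the mean sums, Tagln, Acta2 and Col1a1 together gave 783. Without these 3, left out after their values were seen, the sum over 21 markers was 1447 to 1500 with CHIR99021 and 1290 to 1421 with XAV939. The sums remained higher with CHIR99021, without overlap. The smallest p values were those of Col1a1, a fibrillar collagen (1.05 ± 0.05 SE), Pdgfrb, a growth factor receptor of mesenchymal cells (0.59 ± 0.05), and Tagln, an actin-binding protein (0.67 ± 0.07). By mean level, 14 of the 24 lay at or above the median of all genes and 10 below. Among the low ones were Dcn, Lum and Postn, extracellular matrix genes typical of fibroblasts, named after their values were seen. They read 4.44 and 4.41, 4.08 and 4.02, and 4.29 and 4.25 (CHIR99021 and XAV939), and none of the 3 passed. Smad7, Pmepa1 and Acvr1b, which were higher with CHIR99021, are active in many cell types, and the part of feeder RNA in their differences was not tested. In a bulk sample, fewer cells of a type and less RNA per cell cannot be told apart.

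Summed signal of 8 stem cell markers was 16516 to 17238 with CHIR99021 and 17571 to 18139 with XAV939. This order rests on Utf1, a chromatin-associated factor of pluripotent cells. Without it, left out after its values were seen, the sum over 7 markers was 14427 to 14690 with CHIR99021 and 13901 to 14405 with XAV939, so the order turned. The summed signal of 9 primitive endoderm markers, a lineage that can arise in these cultures, was 2116 to 2231 and 1936 to 2002. The mean sums differed by 198.5 and Sparc alone by 201.1. Without Sparc, left out after its values were seen, the other 8 summed to 976 to 1015 with CHIR99021 and 992 to 999 with XAV939, with overlap. Of the 9, Sparc (0.27 ± 0.06 SE) and Lama1 (0.26 ± 0.05), both of the basement membrane, were higher and the endocytic adaptor Dab2 was lower (-0.35 ± 0.09). Among all genes, 5.31% were higher and 4.34% lower. The lineage's transcription factors Gata4, Gata6 and Sox7 did not pass, with differences of -0.06, 0.11 and 0.08.

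**Figure D4:**
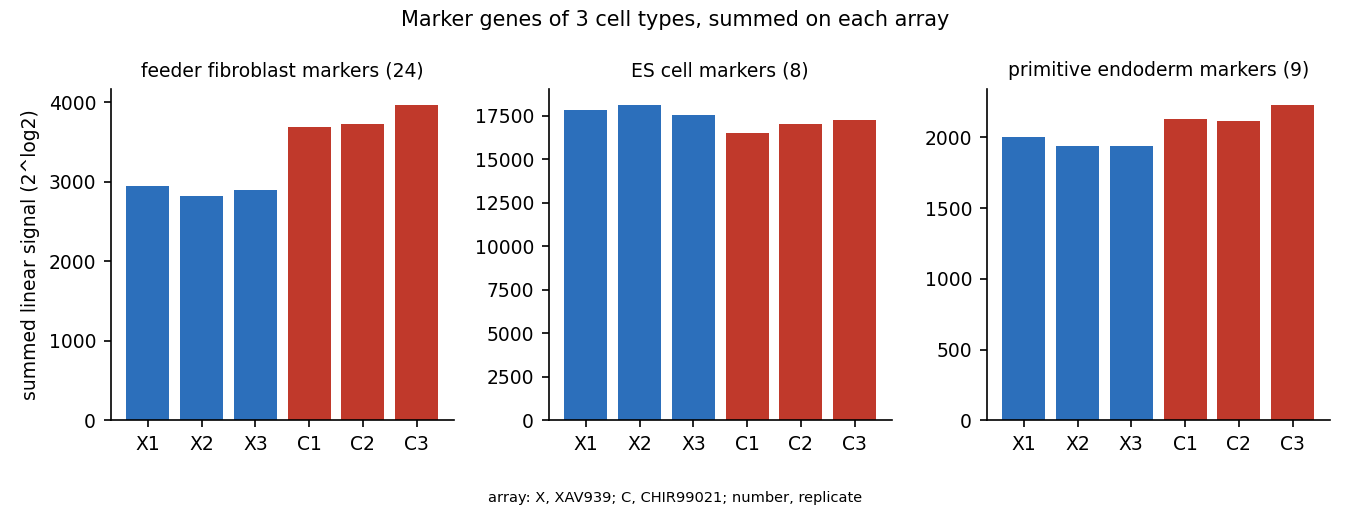
Sum of the linear signal of the marker genes of feeder fibroblasts, stem cells and primitive endoderm on each array, with XAV939 in blue and CHIR99021 in red; axes start at 0 and differ in scale. The fibroblast sum is 3680 to 3965 with CHIR99021 and 2820 to 2940 with XAV939; 3 of the 24 genes, Tagln, Acta2 and Col1a1, carry most of that gap, and Utf1 and Sparc carry those of the other lists.

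Other genes of the pathway were counted in lists grouped by role, 46 genes with a value. Of these, 7 were higher, 5 lower and 34 not past the threshold, with a median absolute log2 difference of 0.14. Over all genes, 5.31% were higher and 4.34% lower, with a median absolute difference of 0.062. The lower count was 3 without CHIR99021 replicate 2 or XAV939 replicate 2 and 3 with a replicate block. Gdf1 shares its probe set with another gene and was left out.

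Of 10 other ligand and convertase genes, 3 rose and 1 fell, where 5.31% of all genes were higher and 4.34% lower. Inhbb, which encodes the subunit of activin B, another ligand of ALK4, read 6.40, 6.23 and 6.21 with CHIR99021 and 7.03, 7.11 and 7.13 with XAV939. It was lower without overlap and fell by 0.82 (-0.82 ± 0.06 SE, 1.76-fold lower, adjusted p = 2.19e-05). Tgfb1, whose product signals through the same SMADs by other receptors, rose by 0.81 ± 0.08 (SE, 1.75-fold), from 7.29, 7.26 and 7.22 to 7.89, 8.07 and 8.23, and was highest on CHIR99021 replicate 3. Tgfb2 rose by 0.53 ± 0.08 (1.45-fold), from a mean of 5.62 with XAV939, below the median gene level (6.07), to 6.15 with CHIR99021. Fibroblasts express TGF-β ligands too, and the share of feeder RNA in these values was not tested. Pcsk6, a convertase that cleaves the Nodal precursor, rose by 0.29 ± 0.07, a call that did not hold when replicate 2 or 3 of either treatment was left out (adjusted p = 0.0516 to 0.0669). Furin, the other main Nodal convertase, differed by 0.20 ± 0.10 (adjusted p = 0.285).

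No gene passed among the 6 other receptors and co-receptors, where 9.65% of all genes passed. At that share a list this small may well hold none. The smallest p was that of Tgfbr3, betaglycan, at 0.24 ± 0.08 (SE, limma unadjusted p = 0.0118, adjusted p = 0.0933). Acvr2a, the second type II activin receptor, differed by -0.15 ± 0.06 (limma unadjusted p = 0.0272). Tgfbr2 differed by 0.14 ± 0.06 (unadjusted p = 0.0401), and neither was past the threshold. Of 5 other extracellular antagonists, also too small a list to set against that share, Fst alone passed. It encodes follistatin, which traps activins, and rose from 5.98, 5.91 and 5.92 to 6.67, 6.60 and 6.60, by 0.69 ± 0.05 (1.61-fold, adjusted p = 1.74e-05). Cer1, which encodes a secreted Nodal antagonist of the anterior endoderm, lay at 5.15 and 5.13, below the median level of all genes, and differed by 0.03 ± 0.07.

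The signal-transducing SMADs did not pass, with Smad2 at -0.04 ± 0.06, Smad3 at 0.11 ± 0.07 and Smad4 at 0.11 ± 0.05 (SE). Foxh1, the forkhead partner of SMAD2 and SMAD3, differed by -0.29 ± 0.11 (adjusted p = 0.158). Of the 7 genes in this list of SMADs and partners, the 2 that rose were Mixl1 and Eomes, mesendoderm transcription factors placed with the partners. Mixl1 rose by 1.50 ± 0.10, from a mean of 5.57 with XAV939 to 7.07 with CHIR99021. Eomes rose by 1.18 ± 0.08, from 5.78 to 6.96. Both XAV939 means lay below the median gene level (6.07), where RMA compresses differences. Among 10 intracellular inhibitors, 2 fell, where 4.34% of all genes were lower and 5.31% higher. Tgif2, a homeodomain corepressor of SMADs, fell by 0.29 (± 0.07 SE). Trim33, a ubiquitin ligase that acts on SMAD4, fell by 0.29 (± 0.07 SE). Both calls were fragile. Tgif2 no longer passed when replicate 1 or 2 of either treatment was left out (adjusted p = 0.0606 to 0.110), nor did Trim33 when replicate 2 or 3 of either was left out (0.0646 to 0.104). With the replicate block the adjusted p was 0.0604 for Tgif2 and 0.0508 for Trim33. Ski, the relative of Skil, differed by -0.17 ± 0.08 (adjusted p = 0.247).

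Of 8 measured genes that answer to SMAD2 and SMAD3 in embryos or cell lines, 1 rose, 2 fell and 5 did not pass. The shares of all genes were 5.31% higher and 4.34% lower. Mixl1 and Eomes, which rose, were counted with the partners above and not in this list, so the count depends on that placing. Otx2, a gene of the epiblast and anterior brain, read 5.47, 5.83 and 5.57 with CHIR99021 and 7.64, 7.83 and 7.80 with XAV939, and fell by 2.14 (-2.14 ± 0.09 SE). Ccn2, a matricellular gene that YAP also controls, fell by 0.34 (-0.34 ± 0.06 SE, adjusted p = 0.00623). Fgf8, a growth factor gene of the streak, rose by 0.33 ± 0.07, a call that ended when CHIR99021 replicate 1, CHIR99021 replicate 3 or XAV939 replicate 2 was left out (adjusted p = 0.0567 to 0.0800). Gsc, Foxa2, Lhx1, Sox17 and Hhex, transcription factors of organiser and endoderm, had differences between -0.08 and 0.03.

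**Figure D5:**
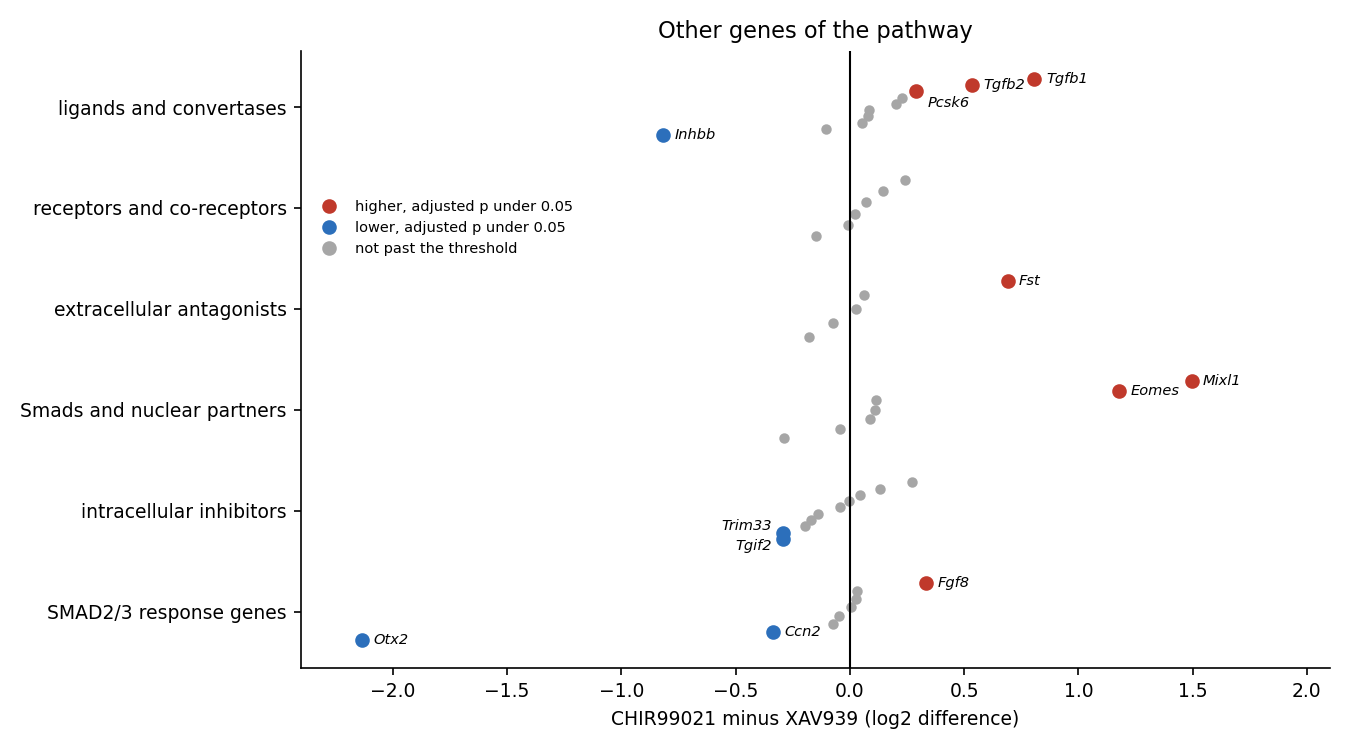
Log2 difference between CHIR99021 and XAV939 of each other gene of the pathway, by list; coloured points passed an adjusted p of 0.05 in limma and are named, grey points did not, and height within a list only separates the points. Of 46 genes, 7 lie to the right in red and 5 to the left in blue.

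Genes outside the pathway with the most similar course over the 6 arrays were found by the Euclidean distance of log2 values centred on each gene's mean. Nearest to Nodal were Ugt8a, a galactosyltransferase of myelin lipid synthesis (distance 0.11), and the amino acid transporter genes Slc7a7 (0.13) and Slc7a3 (0.13), with Pearson correlations of 0.991 to 0.995 over 6 arrays. Nearest to Lefty1 were the DNA methyltransferase gene Dnmt3a (0.24), the carbonic anhydrase gene Car4 (0.25) and the endocytic receptor gene Lrp2 (0.25), with correlations of 0.992 to 0.998. These 6 arrays form 2 groups, so a high correlation mostly restates that a gene differs between treatments by a like amount. The differences of these genes were -0.74, -0.74 and -0.75 for the neighbours of Nodal and -1.50, -1.67 and -1.60 for those of Lefty1.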

How the data were processed

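The authors deposited log2 expression values per probe set, and the submitters' processing notes name RMA as the tool. Neither its version nor a genome build was given in the sources used here. Per the labels' protocols, 300 ng of total RNA was labelled with Affymetrix whole-transcript kits. RMA normalises between arrays and compresses differences of weak signals, so levels of different probe sets do not compare as amounts. The marker sums nevertheless add signals of different probe sets, and those with strong signal weigh most in them. Comparisons with the median level rank signals and not amounts. Without scanner files, neither detection nor scan batches could be examined. Of 34760 probe sets, 21640 named 1 gene in the platform annotation, and the probe set with the highest mean represented each gene, which left 19937 genes.

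Treatments were compared with limma 3.58.1 in R 4.3.3 (lmFit and eBayes, 6 arrays, no filter, 6.15 prior degrees of freedom), with Benjamini-Hochberg adjustment over all genes and a threshold of 0.05. In data simulated for this comparison with 19937 genes, 77.3% of planted log2 differences of 0.3 and 100% of those of 0.5 were called. The simulation used independent normal noise and planted differences in a much smaller share of genes than passed in the data. These percentages may therefore differ for the real genes. The 10 genes and all lists were chosen with earlier results of these data known, so lists are described by counts and medians without a test of their own. Named genes were the 10, every other pathway gene past the threshold (or, in a list with none, that of smallest p), the 3 marker genes of smallest p per list, neighbours on the chromosome and nearest profiles. Further genes named beside these, Zfp42 among them, were chosen after their values were seen. Alternatives covered the choice of probe set, the probe sets tested, normalisation, a level filter, the variance model, a replicate block and each array left out. Plots were drawn with matplotlib 3.10.9.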

Additional observations from a re-analysis of the deposited data

How the results depend on the processing

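Of the 10 genes, 7 kept their direction and their side of the threshold in all 15 alternatives; the exceptions were Pmepa1 and Acvr2b, given above, and Smad7, which missed the threshold when all probe sets were tested. Lefty1 minus Lefty2 stayed between -1.98 and -1.81 over its 13 alternatives. Its limma adjusted p, under the limit given above, ran from 4.62e-07 to 0.00133. Testing all probe sets together called 2 of the 10 genes higher in place of 4 and 3 other pathway genes lower in place of 5, with the calls of Pcsk6, Fgf8, Tgif2 and Trim33 ended, and 584 higher and 460 lower among all genes in place of 1058 and 866. Leaving out each array in turn gave 3 to 4 of the 10 genes higher and 5 lower each time, 5 to 10 other pathway genes higher and 3 to 5 lower, 726 to 1130 of all genes higher and 528 to 1117 lower, and a difference of Acvr2b from -0.072 to 0.118, negative in 3 of the 6 cases (-0.072, -0.019 and -0.047). Without both CHIR99021 replicate 3 and XAV939 replicate 1, an alternative chosen after seeing the data, Pmepa1 differed by 0.21 (adjusted p = 0.0847), and 9 other pathway genes were higher and 7 lower.

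Deviations from the group means correlated at -0.14 to 0.06 between arrays of the same replicate number. Between arrays of different numbers they correlated at -0.13 to 0.18, highest for CHIR99021 replicate 3 with XAV939 replicate 1. Within a group the deviations of a gene depend on each other, so these values cannot decide whether arrays were paired. With a replicate block, 3 of the 10 genes were higher and 5 lower, 3 other pathway genes were lower, and Lefty1 minus Lefty2 was -1.90 (adjusted p = 5.12e-05). Signal over background was not measured, and 16 of the 46 other pathway genes lay below the median level, where RMA compresses differences.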
